A study of Mus musculus with 4 samples.

Results

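Among the kept nuclei of the deposited table, cluster 43 is one of 134 neuronal clusters from the posterior hindbrain, the region that holds the area postrema (AP) and the nucleus tractus solitarii (NTS). The authors named it 43: Tafa2/Pde1a after 2 of its genes, and all nuclei that passed their quality filter and carry this name were taken. These were 164 nuclei, 1.31% of 12539 neurons and 0.416% of 39461 kept nuclei, and they are compared with the other 12375 neurons. *Tafa2* and *Pde1a* gave the cluster its name, so their levels are a description, and the transmitter genes were checked beside them.

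The tissue came from mice on a C57BL/6 background, of both sexes and 12 to 20 weeks old, in 2 groups with 2 libraries each. AgRP-Gq;POMC-Gi mice carry AgRP-IRES-Cre, which switches on the excitatory receptor hM3DGq in AgRP neurons, and POMC-Dre, which switches on the inhibitory receptor hM4DGi in POMC neurons. Control mice, called WT in the labels, carry both receptor alleles (hM3DGq fl/- and hM4DGi fl/-) by the methods text, but neither recombinase. Both groups received CNO, the ligand of these receptors, at 3 mg per kg 1 h before the tissue was taken. The receptors are driven in neurons defined by AgRP or POMC, and hindbrain neurons were profiled to ask how they respond to this manipulation. Samples of a condition were pooled and which mice entered which library is not stated, so p-values measure the spread between libraries, which may be technical.

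*Tafa2* encodes a small secreted protein of the TAFA family, whose members bind neurexins, and *Pde1a* encodes a phosphodiesterase that breaks down cyclic nucleotides when calcium and calmodulin activate it. Fast glutamate release needs a vesicular transporter, which in most hindbrain neurons is VGLUT2, encoded by *Slc17a6*, whereas GABA and glycine neurons fill their vesicles through the product of *Slc32a1*. *Lmx1b* and *Tlx3* encode homeodomain transcription factors known from excitatory relay neurons of the developing dorsal hindbrain, including those of the NTS.

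Control replicates 1 and 2 held 43 and 41 nuclei of the cluster, and AgRP-Gq;POMC-Gi replicates 1 and 2 held 55 and 25. Their unique molecular identifiers (UMIs), each of which marks 1 captured RNA molecule, summed to 471399, 347976, 476880 and 253602 in this order, so AgRP-Gq;POMC-Gi replicate 2 is the least precise. The median nucleus had 7746 UMIs and 3399 genes, against 8708 UMIs and 3566 genes in other neurons. *Xist*, the RNA that coats the inactive X chromosome, stood at 359, 440, 648 and 23.7 counts per 1000000 UMIs (CPM) in the 4 libraries of the cluster, while the Y-linked gene *Uty* stood at 80.6, 83.3, 39.8 and 150 CPM. AgRP-Gq;POMC-Gi replicate 2 thus differed from the other libraries in sex-linked genes. Other neurons gave the same order, with *Xist* at 509, 317, 540 and 16.2 CPM and *Uty* at 56.5, 82.4, 56.0 and 170 CPM. The group comparison had no term for sex, and the part of sex in it was not tested. No barcode was shared between libraries within the cluster, and 2 of its barcodes were also kept in another library.

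The share of neurons that belonged to cluster 43 was 1.74% in control replicate 1 (exact 95% interval 1.26 to 2.34%), 1.499% in control replicate 2 (1.08 to 2.03%), 1.49% in AgRP-Gq;POMC-Gi replicate 1 (1.12 to 1.93%) and 0.687% in AgRP-Gq;POMC-Gi replicate 2 (0.445 to 1.01%). The intervals cover counting error only. The last library was low, and the other 3 lay within each other's intervals. The control mean was 1.62% ± 0.171 and the AgRP-Gq;POMC-Gi mean 1.09% ± 0.566 (SD over 2 libraries), a difference of -0.53 percentage points (two-sided exact permutation test, p = 0.333, the smallest p that 2 against 2 allows). Without AgRP-Gq;POMC-Gi replicate 2 the difference was -0.13 points. Neurons were 25.4% and 27.2% of control nuclei and 38.0% and 36.5% of AgRP-Gq;POMC-Gi nuclei, which enters this share through its denominator. As a share of all kept nuclei the cluster made up 0.442%, 0.408%, 0.566% and 0.251%, and the groups overlapped.

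*Tafa2* (chr10:123263996-123741204, + strand, GRCm38) stood at 1199, 1331, 1466 and 1096 CPM in the 4 libraries of the cluster. The libraries were close to each other, and each lay above the range of 365 to 429 CPM in other neurons. On average *Tafa2* reached 1273 ± 160 CPM (SD, n = 4 libraries), 3.28-fold the level in other neurons, and a UMI was found in 159 of 164 nuclei (97.0%) against 55.6% of other neurons and 1.04% of oligodendrocytes, a type that should lack it (median depth 2460 UMIs). After thinning every nucleus to 2000 UMIs, which left out 1, 165 and 5416 shallower nuclei of the 3 populations, these shares were 84.7%, 35.7% and 0.754%. Single nuclei ranged from 0 to 67 UMIs with a median of 9. Cluster 43 ranked 7 of the 134 neuronal clusters for *Tafa2*, and cluster 159: Casr/Slc6a2 ranked highest with 2538 CPM, so the gene is high in the cluster without being particular to it.

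*Pde1a* (chr2:79834453-80129458, - strand) stood at 734, 828, 866 and 860 CPM. The spread between libraries was small, and none came near the range of 156 to 175 CPM in other neurons. The mean of 822 ± 60.9 CPM was 5.08-fold the level in other neurons, with a UMI in 135 nuclei (82.3%) against 37.4% of other neurons. The cluster ranked 3 for *Pde1a*, behind 102: Necab1/Pde1a with 1039 CPM and 75: Qrfprl/Baiap3 with 838 CPM. The last value and the 802 CPM of the next cluster, 83: Agtr1b/Cntnap5b, lie within 1 SD of cluster 43, so these neighbours in the order do not differ beyond the spread. These 3 clusters had little *Slc17a6* (4.37, 7.05 and 7.11 CPM). Other clusters with *Slc17a6* came nearer. Cluster 111: Cartpt/Postn had 1291 CPM of *Tafa2*, 587 CPM of *Pde1a* and 140 CPM of *Slc17a6*. Cluster 114: Tac1/Tafa2 had 1347, 391 and 132 CPM of these genes. High *Tafa2* and *Pde1a* together with *Slc17a6* is thus not particular to cluster 43. A UMI of both marker genes was found in 132 of the 164 nuclei, and 2 nuclei had neither.

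**Figure D1:**
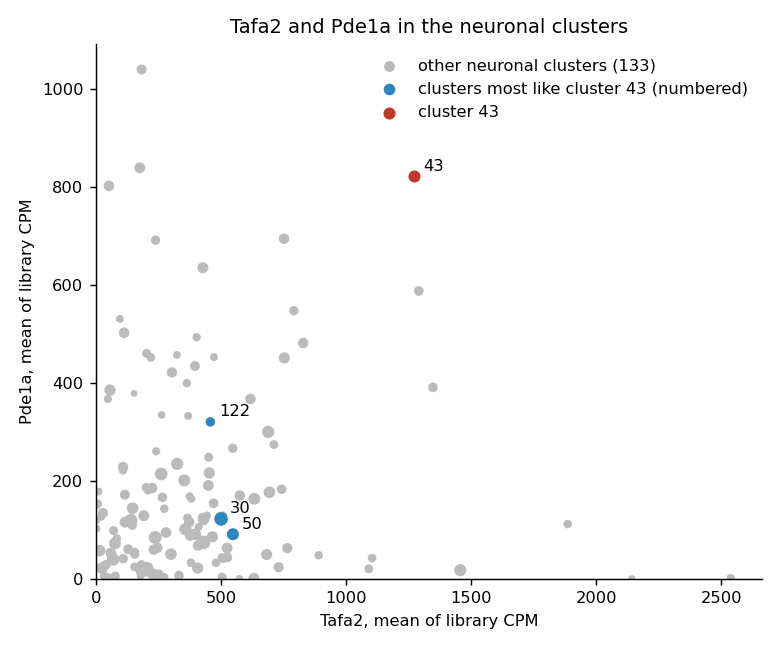
Level of Tafa2 (x axis) against Pde1a (y axis) in the 134 neuronal clusters, each point the mean CPM over the libraries that hold the cluster and its area growing with the number of nuclei, with the 3 clusters most like cluster 43 in blue. Cluster 43 (red) lies far out on both axes at 1273 and 822 CPM, while the clusters with more Tafa2 lie lower in Pde1a and the 2 clusters with more Pde1a lie below 200 CPM of Tafa2.

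*Rbfox3*, which encodes the neuronal nuclear protein NeuN, stood at 333, 307, 310 and 248 CPM, with a UMI in 85.4% of the nuclei against 75.4% of other neurons. The transmitter genes gave a glutamatergic profile. *Slc17a6* stood at 148, 155, 145 and 174 CPM, with a UMI in 108 nuclei (65.9%). All 4 libraries lay above the range of 69.8 to 77.7 CPM in other neurons, of which 35.3% had a UMI, and oligodendrocytes had one in 3.49%. The mean was 155 ± 12.8 CPM, 2.07-fold the other neurons, and the cluster ranked 20 of 134. *Slc17a7* and *Slc17a8*, which encode the other vesicular glutamate transporters, had 1 and 3 UMIs in all 164 nuclei.

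Genes of inhibitory transmission were low. *Slc32a1* had a UMI in 10 nuclei (6.10%) against 20.2% of other neurons and 2.82% of oligodendrocytes. *Gad1* and *Gad2*, which encode the enzymes that make GABA, were found in 5 and 9 nuclei, with 0.0679-fold and 0.0771-fold the level of other neurons. *Slc6a5*, the glycine transporter gene of glycinergic terminals, had 3 UMIs, all in control replicate 1, and was 0.0189-fold the other neurons. After thinning, *Slc32a1* was seen in 2.45% and *Gad2* in 3.07% of the cluster's nuclei, beside 1.98% and 2.42% of oligodendrocytes. Of the nuclei with *Slc17a6*, 8 also had *Slc32a1* and 6 also had *Gad2*.

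Of 13 genes of monoamine and acetylcholine transmission, 3 were found in 5% or more of the nuclei. The choline acetyltransferase gene *Chat* had 3 UMIs and *Th*, which encodes the first enzyme of catecholamine synthesis, had 7. The genes of the noradrenaline, dopamine and serotonin transporters (*Slc6a2*, *Slc6a3*, *Slc6a4*) and of *Tph2*, *Hdc* and *Pnmt* were at 0. Each 0 of 164 nuclei allows a share of up to 1.83% with a UMI. *Ddc*, which encodes the decarboxylase shared by monoamine pathways, was found in 38 nuclei (23.2%) at 37.0 ± 5.27 CPM, 2.77-fold the other neurons. *Ddc* lies opposite to *1700042O10Rik*, itself 3.22-fold the other neurons, so its count is uncertain. *Slc18a2*, which encodes the vesicular monoamine transporter, was at 12.7, 31.6, 14.7 and 31.5 CPM from 27 nuclei (16.5%), level with other neurons, of which 16.6% had a UMI. The gene *Gm29261* lies opposite to it. *Dbh*, which encodes the enzyme that makes noradrenaline, had 14.8, 2.87, 8.39 and 7.89 CPM from 11 nuclei, 6.72-fold the other neurons. The *Dbh* values rest on 7, 1, 4 and 2 UMIs and overlap between groups.

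**Figure D2:**
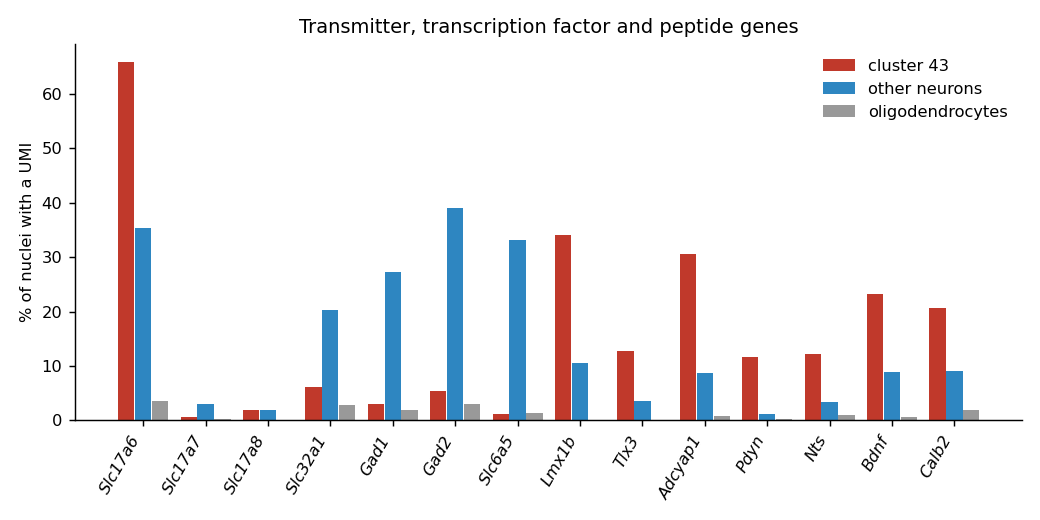
Share of nuclei with at least 1 UMI (y axis, %) for genes of transmitters, transcription factors and peptides (x axis) in cluster 43, other neurons and oligodendrocytes, over all libraries. Slc17a6 is the highest bar of the cluster at 65.9%, and Gad1, Gad2 and Slc6a5 lie between 1.22% and 5.49% in the cluster against 27.3% to 39.0% in other neurons.

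The leading genes were those of highest ratio to other neurons among genes seen in 25% or more of the cluster's nuclei and in each library. Among them, *Lmx1b* (chr2:33560965-33640511, - strand) stood at 48.8, 48.9, 46.1 and 63.1 CPM. The libraries were alike, at 51.7 ± 7.69 CPM, 3.32-fold the other neurons, with a UMI in 56 nuclei (34.1%). Cluster 43 ranked 26 of the 134 neuronal clusters for *Lmx1b*, and cluster 148: Ccdc172/Ebf2 ranked highest with 135 CPM. The gene is thus not particular to cluster 43. *Tlx3* stood at 13.9 ± 3.66 CPM, 3.37-fold the other neurons, with a UMI in 21 nuclei (12.8%) against 3.65%. The nuclei with *Lmx1b* had a median of 11516.5 UMIs and those without it 6960.5, so depth moved with its detection and its part was not tested.

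*Rorb*, which encodes an orphan nuclear receptor, stood at 233, 379, 239 and 35.5 CPM. AgRP-Gq;POMC-Gi replicate 2 was low, below the range of 44.3 to 72.1 CPM in other neurons, and the other 3 libraries were far above it. A UMI was found in 14 of 43, 19 of 41, 22 of 55 and 5 of 25 nuclei, with up to 29, 38, 43 and 3 UMIs in 1 nucleus. The 5 nuclei with most *Rorb* held 40.0% of its UMIs, and AgRP-Gq;POMC-Gi replicate 2 had none with more than 3.

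The leading genes also included *C1ql3*, which encodes a secreted synaptic organiser (113 ± 14.5 CPM, 5.38-fold), *Adcyap1*, which encodes the neuropeptide PACAP (4.42-fold), *Serpine2*, which encodes a secreted protease inhibitor (4.31-fold), and *Pcp4*, which encodes a calmodulin-binding peptide (3.49-fold). *Pcp4* overlaps *Igsf5* on the same strand, so its count is uncertain. *Zfhx3*, which encodes a large zinc-finger homeodomain factor, reached 1375 ± 192 CPM (2.90-fold) and was found in 156 nuclei. Of the 134 neuronal clusters, cluster 43 ranked 13 for *Zfhx3*, 9 for *C1ql3* and for *Rorb*, and 4 for *Serpine2*. By mean log-normalized value the rank for *Serpine2* was 13. That gene stood at 106, 86.2, 56.6 and 197 CPM, and the 5 nuclei with most of it held 36.3% of its UMIs. *Adamts2* and *Bmper*, which encode an extracellular protease and a BMP-binding protein, were 2.96-fold and 2.77-fold the other neurons. The long non-coding RNA *Lncenc1* was 4.54-fold. Less studied genes among them were *4933424G06Rik* (3.86-fold), *Gm33696* (3.50-fold), *Gm2824* (3.28-fold), AW551984 (2.86-fold) and *2700069I18Rik* (2.67-fold). Of these, *4933424G06Rik*, *Gm33696* and *2700069I18Rik* lie opposite to *Actr1b*, *Efcab1* and *Zfhx4*, so their counts are uncertain. *Lncbate1* lies opposite to *Zfhx3* in the annotation, so the counts of the pair are uncertain. Of 11789 genes found in 5% or more of the nuclei, 273 (2.32%) had a ratio above 2 and 172 (1.46%) were below 50% of the level in other neurons. Since the clusters were made from the same counts, these differences describe the cluster and were not tested. The 5% minimum was set in cluster 43 alone, so genes nearly absent from it, such as *Slc6a5* and *Gad1*, cannot enter the low count. Counts and medians of the gene lists below carry the same limit.

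**Figure D3:**
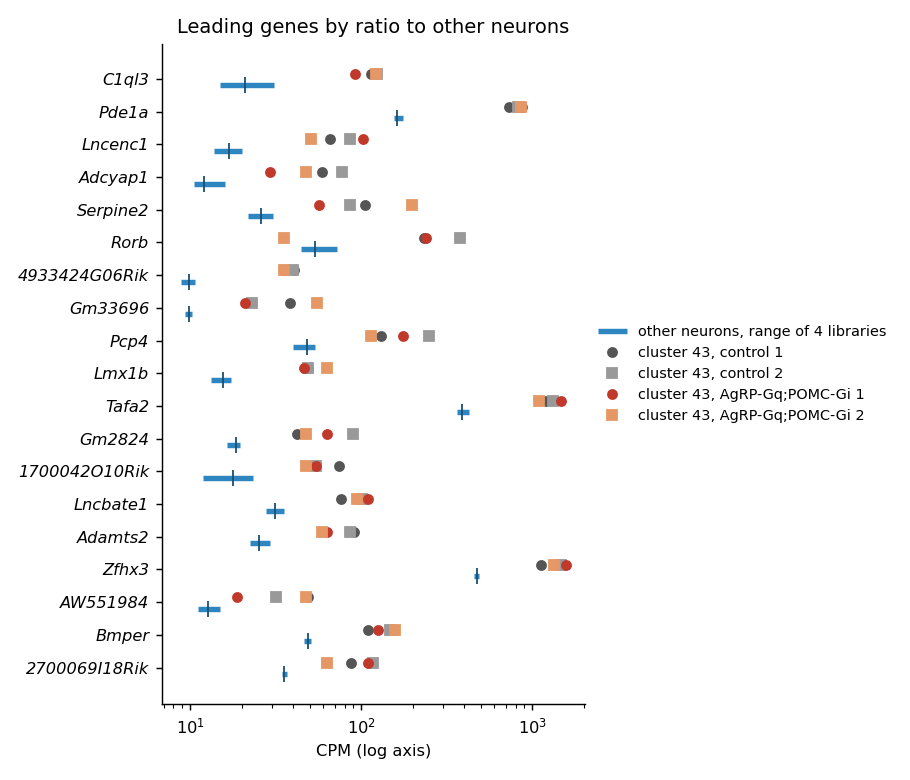
Level (x axis, CPM on a log axis) of leading genes of highest ratio to other neurons in the 4 libraries of cluster 43 (points) and the range and mean of the same 4 libraries in other neurons (bar and tick). The points lie above the bar for each gene other than Rorb, for which AgRP-Gq;POMC-Gi replicate 2 lies at 35.5 CPM.

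*Slc6a5*, *Gad1* and *Gad2* were among the genes lowest relative to other neurons. *Pax2*, a factor of inhibitory hindbrain neurons, was found in 2 nuclei (0.0259-fold) and *Nfib* in 7 (0.0450-fold). *Adarb2* stood at 84.1 ± 48.7 CPM (0.116-fold), the glypican gene *Gpc5* at 135 ± 96.7 CPM (0.143-fold), the kainate receptor gene *Grik3* at 11.9 ± 6.86 CPM (0.154-fold) and the calcium channel gene *Cacna2d3* at 94.8 ± 40.9 CPM (0.178-fold).

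Among 76 hindbrain factor genes, 26 were found in 5% or more of the nuclei, 8 of them above 2-fold and 4 below 50% of other neurons. *Ebf1* reached 1294 ± 202 CPM (2.49-fold) and was found in 138 nuclei, and *Tfap2b* was 2.18-fold with a UMI in 29 nuclei. *Meis1* stood at 340 ± 71.4 CPM (1.68-fold), whereas *Meis2* and *Pbx3* were 0.627-fold and 0.366-fold. *Tshz1* and *Satb1* were 0.289-fold and 0.318-fold. No UMI was found for *Lbx1*, *Lhx5*, *Lhx9*, *Barhl1*, *Barhl2* or *Atoh1*, which mark other dorsal hindbrain or cerebellar lineages, and *Lhx2* and *Pou4f1* had 1 and 2.

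Hox genes encode factors that set position along the hindbrain and spinal cord. Of 27, 6 were found in 5% or more of the nuclei, with a median ratio of 0.54 against 1.02 over all 11789 genes. *Hoxb4* was 0.251-fold, *Hoxa3* 0.424-fold and *Hoxb3* 0.478-fold the other neurons, *Hoxc4* and *Hoxb2* 0.608-fold and 0.726-fold, and *Hoxd3* 1.09-fold. *Hoxb3* was the most widespread of the lower ones, found in 32 nuclei (19.5%) against 35.3% of other neurons. In the annotation *Hoxa3* overlaps *Hoxa4*, *Hoxa5* and *Hoxa6* on the same strand, and *Hoxd3* overlaps *Hoxd4*, so their counts are uncertain. Among genes of the posterior groups, *Hoxc9* had 1 UMI, and *Hoxa9*, *Hoxb9*, *Hoxc8*, *Hoxd8* and *Hoxd9* had none.

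Of 30 neuropeptide genes, 8 were found in 5% or more of the nuclei, 3 of them above 2-fold. *Adcyap1* stood at 59.4, 77.6, 29.4 and 47.3 CPM, with a UMI in 18 of 43, 16 of 41, 10 of 55 and 6 of 25 nuclei. Both control libraries were above both AgRP-Gq;POMC-Gi libraries, and all 4 were above the range of 10.5 to 16.0 CPM in other neurons. *Pdyn*, which encodes the dynorphin precursor, stood at 14.8, 48.9, 8.39 and 23.7 CPM, 13.3-fold the other neurons on average and rank 2 of 134, but rested on 19 nuclei (11.6%). *Nts*, which encodes neurotensin, stood at 29.7, 31.6, 18.9 and 23.7 CPM (4.82-fold) from 20 nuclei (12.2%), rank 4. *Penk*, the enkephalin precursor gene, was more common at 42 nuclei (25.6%), yet 21.0% of other neurons had it too. The growth factor gene *Bdnf* stood at 39.9 ± 17.5 CPM (3.01-fold), with a UMI in 38 nuclei.

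Genes of several other peptides were close to absent. *Npy* had 11 UMIs, *Calca* 7, *Vip* 3 and *Crh* 2, and *Gcg*, *Prlh*, *Trh*, *Oxt* and *Avp* had none. *Agrp* was found in 47.6% of the nuclei and in 50.8% of other neurons. In the annotation *Agrp* overlaps *Ctcf* and *Ripor1* on the opposite strand and *Gm5914* on the same strand, so its count is uncertain. *Pomc* was found in 8 nuclei (4.88%).

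Of 22 genes of receptors for feeding signals, 11 were found in 5% or more of the nuclei. The melanocortin receptor gene *Mc4r* was found in 10 nuclei (6.10%, 3.17-fold), the calcitonin receptor gene *Calcr* in 11 (6.71%) and the neuropeptide Y receptor gene *Npy2r* in 10 (6.10%). *Mc4r* rested on 10.6, 8.62, 4.19 and 3.94 CPM from few UMIs, so its ratio is imprecise. *Calcr* had 11, 3, 7 and 0 UMIs, 9 of them in a single nucleus of control replicate 1, and *Npy2r* had 9, 2, 0 and 2 UMIs. Most of the *Npy2r* level thus came from control replicate 1, and no ratio to other neurons is given for *Calcr* and *Npy2r*. *Npy1r* and *Npy5r*, for further neuropeptide Y receptors, were found in 8 and 13 nuclei at 1.04-fold and 0.923-fold. *Lepr*, the leptin receptor gene, was found in 24 nuclei (14.6%) against 12.6% of other neurons. *Glp1r*, *Gfral*, *Gipr* and *Cckar*, which mark other cells of the AP and NTS, had 1 UMI each, and *Mc3r*, *Ghsr* and *Htr3a* had none. *Htr2c*, for a serotonin receptor, stood at 551 ± 191 CPM in 108 nuclei, 0.747-fold the other neurons.

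Of 39 genes of neuromodulator receptors and trophic signalling, 22 were found in 5% or more of the nuclei, with a median ratio of 0.97. The neurotrophin receptor genes *Ntrk2* and *Ntrk3* were found in 149 and 157 nuclei at 1.04-fold and 1.33-fold. *Adra2a*, an adrenergic receptor gene, was 3.10-fold from 11 nuclei, none with more than 1 UMI of it, so this ratio is imprecise. *Avpr1a*, a vasopressin receptor gene, was found in 5 nuclei, below the 5% minimum. No nucleus had more than 2 of its UMIs and other neurons had 0.379 to 0.480 CPM, so no ratio is given. The opioid receptor gene *Oprm1* was 0.648-fold.

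In the TAFA list, which also holds the neurexins that TAFA proteins bind, *Tafa2* was the member above 2-fold. *Tafa1* and *Tafa5* stood at 1.12-fold and 1.17-fold and *Tafa3* and *Tafa4* at 0. *Nrxn3* stood at 1841 ± 406 CPM (0.420-fold). Among 18 phosphodiesterase genes, 16 were found in 5% or more of the nuclei and *Pde1a* was the member above 2-fold. *Pde1b* and *Pde1c*, its closest relatives, stood at 0.970-fold and 0.872-fold. *Pde7b* and *Pde2a* were 1.70-fold and 1.69-fold, and *Pde11a* and *Pde3a* were 0.263-fold and 0.424-fold.

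Among 26 genes of cyclic nucleotide and calmodulin signalling, *Prkg1*, which encodes a kinase activated by cyclic GMP, reached 2138 ± 414 CPM (2.55-fold) and was found in 152 nuclei (92.7%) against 73.6% of other neurons. The guanylyl cyclase genes *Gucy1a2* and *Gucy1a1* stood at 1.22-fold and 0.398-fold, the nitric oxide synthase gene *Nos1* at 0.383-fold and the calmodulin kinase gene *Camk4* at 0.427-fold. The 3 calmodulin genes lay between 0.914-fold and 0.974-fold.

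Of the ion channels, *Kcnq5* (1157 ± 132 CPM, 2.21-fold) and *Kcnh8* (177 ± 37.3 CPM, 2.49-fold) were the potassium channel genes above 2-fold, whereas *Kcnip4*, which encodes an accessory subunit, was 0.454-fold. *Cacna2d1*, which encodes the calcium channel subunit that binds gabapentin, reached 1030 ± 90.5 CPM (2.06-fold) and was found in 163 nuclei against 57.5% of other neurons. Its relative *Cacna2d3* was the lowest of the list. *Cacna1h*, for a T-type calcium channel, was 2.81-fold with a UMI in 39 nuclei. Of 22 glutamate receptor genes found, none was above 2-fold, and *Grik1* and *Grik3* were below 50% of other neurons. In the adhesion list, *Sema3c* (2.83-fold, 36 nuclei) and *Ntng1* (944 ± 231 CPM, 2.20-fold) were above 2-fold, and *Sema3e* and *Sema3a* were 0.308-fold and 0.429-fold. *Calb2*, which encodes calretinin, was 2.50-fold with a UMI in 34 nuclei, and *Calb1* was 0.868-fold.

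Markers of other cell types were low. Summed over 7 oligodendrocyte genes the cluster had 136 to 230 CPM per library, with a median ratio of 0.89 to other neurons, and the astrocyte list summed to 8.39 to 17.0 CPM. *Gfap*, *Tmem119*, *Cldn5* and *Col1a1* were at 0. The microglial list summed to 181 to 191 CPM, most of it from *P2ry12*, which overlaps *Med12l* on the opposite strand and stood at 1.07-fold the other neurons. *Ttr*, the leading gene of the choroid plexus, was at 2.12, 1227, 6.29 and 489 CPM in the cluster. In other neurons it was at 1.48, 1000, 7.55 and 581 CPM. It was thus low in replicate 1 and high in replicate 2 of both groups, in the cluster and in other neurons alike.

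By correlation of log-scaled mean CPM over 12115 genes, the clusters most like cluster 43 among 119 compared were 30: Zfp804b/Npas1 (r = 0.947), 122: Zfp804b/Lncenc1 (r = 0.945) and 50: Lhx9/Vwc2l (r = 0.942), against a median r of 0.891. Genes are not independent replicates and the clusters share libraries, so these values only order the clusters. Cluster 28: Mecom/Sema3a took the place of 1 of the 3 when control replicate 1 or either AgRP-Gq;POMC-Gi library was left out. The 3 clusters had 135, 147 and 175 CPM of *Slc17a6*, near the 155 CPM of cluster 43, and 122, 320 and 90.9 CPM of *Pde1a*, well under its 822 CPM.

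*Zeb2*, *Lmx1b* and *Rorb* were among the genes by which cluster 43 stood above cluster 30, with *Zeb2* at 94.2 against 4.02 CPM and *Lmx1b* at 51.7 against 2.76 CPM. Cluster 30 had 84.6 CPM of *Npas1*, which was at 0 in cluster 43, and 75.1 CPM of *Dchs2* against 7.14 CPM. Cluster 50 had 40.3 CPM of *Lhx9* and 48.3 CPM of *Lhx2*, which stood at 0 and 0.718 CPM in cluster 43. Cluster 122 was near cluster 43 in *Lmx1b* (50.2 against 51.7 CPM) and *Tlx3* (17.0 against 13.9 CPM). It differed in *C1ql3* (2.16 against 113 CPM) and *Ebf1* (135 against 1294 CPM), and its 35.0 CPM of *Adamts19* faced 0 in cluster 43. These are descriptions of clusters made from the same counts.

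Within the cluster, the variance of a gene's UMIs over nuclei, relative to what sampling at each nucleus's depth gives, had a median of 1.11 over 9463 genes found in at least 10% of the nuclei, and 1.65 at the 90th percentile. *Malat1*, *Dpp10*, *Kcnip4*, *Pcdh9* and *Galntl6* had the highest values, from 47.5 to 106. At the same relative spread this value rises with a gene's level. It was 9.15 for *Pde1a*, 5.61 for *Tafa2* and 1.23 for *Slc17a6*, which is lower in level. The 5 nuclei with most of each gene held 15.5%, 12.6% and 16.0% of its UMIs in this order. The higher values thus do not show the marker genes to be more uneven than *Slc17a6*. The 5 nuclei with most *Pdyn* held 52.9% of its UMIs and those with most *Kcnip4* 24.8%, so part of the peptide and channel signal came from few nuclei.

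The comparison of AgRP-Gq;POMC-Gi with control libraries asks whether reciprocal control of AgRP and POMC neurons was followed by a change of expression in these neurons. Of 11789 genes tested with edgeR's quasi-likelihood test, 0 (0%) passed an adjusted p of 0.05, and 524 (4.44%) had an unadjusted p under 0.05. DESeq2 called 0 with 53 unadjusted. With 25 to 55 nuclei behind each library, a gene that was not called is not shown to be unchanged.

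The immediate early genes (IEGs), which neurons switch on within minutes of activity, were sparse. *Fos* had 0, 1, 2 and 1 UMIs in the 4 libraries, 4 in 164 nuclei, and no nucleus had more than 1. *Fosl2* and *Nr4a3* had 2 each, all in control replicate 2, and *Gem* had 3, all in control libraries. The 10 IEGs together gave 56, 62, 48 and 34 UMIs, or 119, 178, 101 and 134 CPM. The groups overlapped, and the same sum in other neurons was 160, 152, 156 and 194 CPM.

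The 6 IEGs found in 5% or more of the nuclei were tested, and 0 passed. *Homer1*, which encodes a postsynaptic scaffold, stood at 57.3, 60.3, 50.3 and 55.2 CPM, and both AgRP-Gq;POMC-Gi values lay just below both control values. Its log2 fold change was -0.07 ± 0.34 (SE; edgeR adjusted p = 0.999). *Nr4a1*, an orphan nuclear receptor gene, stood at 8.49, 23.0, 6.29 and 3.94 CPM from 4, 8, 3 and 1 UMIs, a log2 fold change of -1.29 ± 0.83 (edgeR adjusted p = 0.985). It was -0.51 without control replicate 2 and -1.91 without control replicate 1. *Btg1* was the member with a positive value, 0.66 ± 0.65. It stood at 31.5 CPM in AgRP-Gq;POMC-Gi replicate 2 against 10.5 to 12.7 CPM in the other libraries, and without that library its log2 fold change was -0.07. *Jun*, *Junb* and *1700016P03Rik* had log2 fold changes of -0.30 ± 0.77, -0.01 ± 0.99 and -0.67 ± 0.52 (SE, edgeR), with no adjusted p below 0.985. The value of *Junb* changed sign with the control library kept, from 1.65 without control replicate 2 to -0.93 without control replicate 1. That of *1700016P03Rik* went from -0.27 to -1.05 in the same fits, and that of *Jun* from -0.52 to 0.03.

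**Figure D4:**
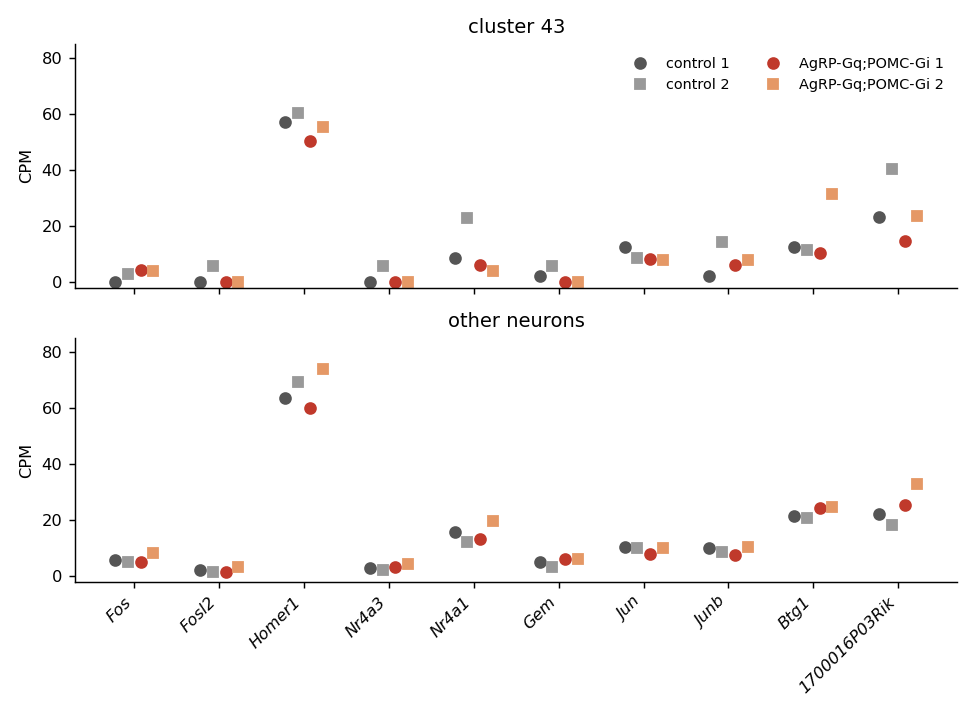
Level (y axis, CPM) of the 10 IEGs in the 4 libraries, in cluster 43 (top) and in other neurons (bottom). In the cluster Homer1 lies between 50.3 and 60.3 CPM in both groups and Fos at or below 4.19 CPM.

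The cluster's own genes gave small differences between the groups. Log2 fold changes were 0.12 ± 0.24 for *Tafa2*, 0.23 ± 0.22 for *Pde1a*, 0.14 ± 0.24 for *Slc17a6* and 0.20 ± 0.36 for *Lmx1b* (SE, edgeR), and no adjusted p was below 0.985. *Rorb* had -0.89 ± 1.01, with AgRP-Gq;POMC-Gi replicate 1 between both control libraries at 239 CPM and AgRP-Gq;POMC-Gi replicate 2 far below them at 35.5 CPM. Without AgRP-Gq;POMC-Gi replicate 2 the value of *Rorb* was -0.19, and without replicate 1 of that group it was -3.06. In the latter fit *Tafa2* had -0.19. *Adcyap1*, with -0.80 ± 0.37, had an unadjusted p of 0.0411 and an adjusted p of 0.985 by edgeR.

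No member of any list passed the test. All 8 neuropeptide genes tested had negative values, with a median log2 fold change of -0.57 against 0.00040 over all genes, and they did so with library size alone and with DESeq2 as well. They were *Adcyap1*, *Agrp*, *Cartpt*, *Cck*, *Nts*, *Pdyn*, *Penk* and *Sst*. The 5 nuclei with most of each gene held 52.9% of the UMIs of *Pdyn* and 41% of those of *Penk*, with *Nts* and *Sst* between them. These shares were 27.2% for *Adcyap1* and 14.4% for *Agrp*, whose count is uncertain. In control replicate 2, 1 nucleus held 16 UMIs of *Cartpt*. How far the shared sign rests on few nuclei or on 1 library was not tested. Of 16 genes induced by glucocorticoids, 7 were tested and 6 had negative values, with a median of -0.63. *Zbtb16* had the smallest unadjusted p among them, standing at 42.4, 43.1, 21.0 and 11.8 CPM over the 4 libraries, with a log2 fold change of -1.16 ± 0.47 (edgeR adjusted p = 0.985). *Sgk1* was the member with a positive value, 0.28 ± 0.32, and was at -0.31 without AgRP-Gq;POMC-Gi replicate 1. In other neurons *Fkbp5* of this list stood at 43.4, 36.8, 27.3 and 27.1 CPM, and *Errfi1* at 21.0, 21.5, 19.1 and 19.2 CPM. Both were lower there in the AgRP-Gq;POMC-Gi libraries, so the shift is not shown to be the cluster's own. Values of the remaining members in other neurons are not given here. In other lists more values were positive than negative, while 5897 of all 11789 genes tested were positive. Positive values were found in 18 of 22 glutamate receptor genes (median 0.14), 19 of 25 sodium, calcium and HCN channel genes (0.14), 21 of 30 potassium channel genes (0.18) and 25 of 39 adhesion and guidance genes (0.22). With library size alone these counts were 15, 15, 18 and 24, and the medians 0.05, 0.05, 0.08 and 0.12, against -0.10 over all genes, of which 4847 were positive. These counts were not tested. The 6 oligodendrocyte genes tested had a median of -0.49, and the 7 markers summed to 229, 230, 136 and 213 CPM. Without the 9, 7, 4 and 3 nuclei that held UMIs of 3 or more of these markers, 1 gene passed, *Adarb2* (log2 fold change 2.73, edgeR adjusted p = 0.00479). Over all nuclei of the cluster *Adarb2* stood at 123, 17.2, 117 and 78.9 CPM, the groups overlapped, and the log2 fold change was 0.53 ± 0.84 (edgeR adjusted p = 0.985), so this call rests on leaving those nuclei out.

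The genes with the smallest p had no call either. The long non-coding RNA *Gm32828* stood at 21.2, 17.2, 67.1 and 98.6 CPM, a log2 fold change of 2.10 ± 0.40 (edgeR adjusted p = 0.343). *Skap2*, which encodes an adapter protein, stood at 25.5, 28.7, 77.6 and 94.6 CPM, with 1.73 ± 0.36 (edgeR adjusted p = 0.465). *Gm32647* stood at 401, 408, 147 and 225 CPM, with -1.08 ± 0.24 (edgeR adjusted p = 0.479). The groups did not overlap in these 3 genes, as in 33.9% of all genes tested. *Gm32647* was uneven across nuclei, and the 5 nuclei with most of it held 44.5% of its UMIs. Without the nuclei that held oligodendrocyte markers, its value was -0.62 (edgeR adjusted p = 0.994), that of *Gm32828* 1.41 and that of *Palld*, given next, -1.28. Others among the 10 genes of smallest p were *Nr6a1os* (1.32 ± 0.29), the mismatch repair gene *Pms1* (2.91 ± 0.65, from 2, 2, 21 and 6 UMIs) and *March11* (1.23 ± 0.28). *H3f3b* (1.01 ± 0.26), *Actb* (-1.13 ± 0.29) and *Palld* (-1.96 ± 0.51) followed. *H3f3b* and *Actb* had values of the same sign in other neurons, 0.78 and -0.55, and the difference between cluster and other neurons was 0.20 ± 0.27 and -0.52 ± 0.29 (edgeR adjusted p = 0.9998 for each). In the cluster *Rasal1* had no control UMI and 6 and 4 UMIs in replicates 1 and 2 of AgRP-Gq;POMC-Gi. It passed the 5% minimum only through nuclei of that group and on few UMIs, so its contrast between groups is not read as a result.

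**Figure D5:**
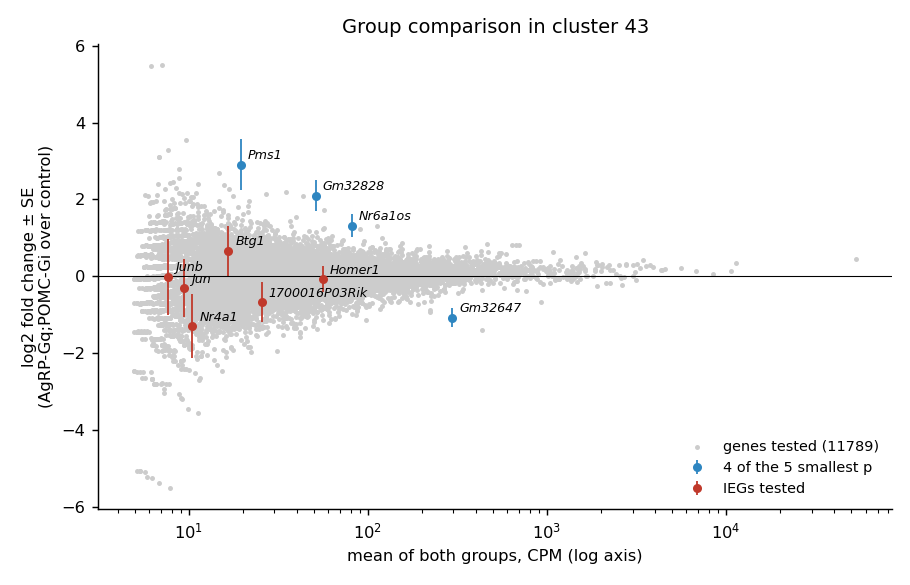
Log2 fold change (y axis, AgRP-Gq;POMC-Gi over control, bars give the SE) against the mean level of both groups (x axis, CPM on a log axis) for 11789 genes in cluster 43. The 6 IEGs tested (red) lie within the cloud of all genes, and 4 of the 5 genes with the smallest p (blue) lie at its edge, with none called.

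Single libraries decided which genes passed. Without AgRP-Gq;POMC-Gi replicate 1, 20 genes were called, 9 higher and 11 lower, among them *Xist* (log2 fold change -4.03), *Tsix* (-4.84) and *Rorb* (-3.06), in each of which AgRP-Gq;POMC-Gi replicate 2 had stood far below the other libraries. Without AgRP-Gq;POMC-Gi replicate 2, 4 genes were called, *Pms1* and *Dach2* higher and *Gm32647* and *Gm26713* lower. Leaving out either control library gave 0. In such fits the lone library of a group is assumed to vary like the others.

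Whether the group effect in cluster 43 differed from that in other neurons was tested over the same libraries with an interaction term. Of 11789 genes, 0 (0%) passed in edgeR at an adjusted p of 0.05, and 489 had an unadjusted p under 0.05. The smallest adjusted p was 0.326, shared by *Gm32828*, *Trpm3*, *Pms1* and *Gm32647*. *Trpm3*, a cation channel gene, stood at 1298, 1035, 816 and 556 CPM in the cluster and at 691, 667, 770 and 909 CPM in other neurons, control being higher in the cluster and lower in other neurons. The difference of the 2 effects was -1.03 ± 0.23 on the log2 scale, which did not pass the correction. With 1 library left out, 3 to 34 genes passed, most without AgRP-Gq;POMC-Gi replicate 1.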

How the data were processed

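Nuclei were taken from posterior hindbrain tissue, sorted by DRAQ5 and sequenced with the 10x Genomics 3′ kit. Per the labels and the study's methods, the authors counted UMIs with Cell Ranger 7.0.0 on GRCm38, used Seurat 4.3.0, applied quality and doublet filters, and clustered nuclei on an scVI embedding without IEGs. The deposited matrices hold raw counts of UMIs per gene and nucleus, and the deposited table gives UMI and gene counts, the percent of mitochondrial reads, the quality call and the cluster of each nucleus. No cell was called again. The authors' IEG score column and the merged matrix were not used. Free RNA and doublets left by the authors' filter remain.

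UMIs of the 164 nuclei were summed per library (253602 to 476880) and divided by their total to give CPM. Positions are from GENCODE M21. edgeR 4.0.16 (R 4.3.3; robust quasi-likelihood fit, TMM factors, Benjamini-Hochberg adjustment) tested genes seen in 5% or more of the nuclei, on 4 sums for the group comparison and on 8 sums with a library block for the interaction. SEs were derived from the fold change and F. DESeq2 1.42.0, other filters, library size alone, the replicate number as a block and libraries left out were alternatives. The fits were checked on simulated data. Figures were drawn with matplotlib 3.10.9. The members and gene lists were chosen with earlier results of these data known. Some items are not reported here. Genes named are the markers, genes of highest ratio, the 10 of smallest p, the 10 IEGs, the extreme or most expressed list members, and the 5 most different from each like cluster or most variable; the genes lowest relative to other neurons, *Trpm3*, *Xist*, *Uty* and further list members, and genes called in an alternative were added after their values were seen.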

Additional observations from a re-analysis of the deposited data

How the results depend on the processing

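The group comparison in cluster 43 gave 0 calls with library size alone, DESeq2, filterByExpr and a 10% detection minimum. It gave 1 (*Gm32828*) without a filter on genes and 1 without nuclei that hold oligodendrocyte markers, and 0 to 20 with 1 library left out. The replicate number as a block gave 3 calls (*Skap2*, *Gm32828* and *Dach2*). Deviations of libraries with the same number correlated at 0.031 over 9463 genes, and the main fits did not pair them. With 25 to 55 nuclei behind each sum, counting error limits this correlation, and *Ttr* went with the replicate number. Whether the numbers pair the libraries was thus not settled. No IEG passed under any of these settings. The interaction gave 4 calls without a filter on genes and 3 to 34 with 1 library left out. The rank of *Tafa2* was 5 by mean log-normalized value and 6 to 7 with 1 library left out, and that of *Slc17a6* was 33 by mean log-normalized value. Of the 3 most like clusters, 2 to 3 stayed with 1 library left out. The difference in share of neurons went from -0.93 to -0.13 points with 1 library left out, with no p below 0.333 possible. Over all kept nuclei the difference was -0.017 points. There AgRP-Gq;POMC-Gi replicate 1 (0.566%) lay above both control libraries (0.442% and 0.408%), so the negative sign rests on replicate 2 (0.251%). The cause of these shifts was not tested. Depth limits genes with few UMIs most, since 25 to 55 nuclei stand behind each library and AgRP-Gq;POMC-Gi replicate 2 has the fewest.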
